A study of Rattus norvegicus with 24 samples.

Results

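Unnamed chromosome 1 loci are genes of rat chromosome 1 that carried only a LOC placeholder symbol in the annotation used for the F0 rats. Of 1221 chromosome 1 genes in that annotation list (Rnor6), 43 had such a symbol, and LOC100134871 was set aside together with all genes of 2 windows, one around Mfge8 and Pex11a and another around Ucp2 and C2cd3. Of the other 42, 41 reached at least 1 CPM (reads on a gene scaled to the size of the library) in at least 6 of the 23 rats used. They were 41 of the 13838 genes tested across the whole count table. The list used here reaches a last gene start of 216702319, so loci further along the chromosome were not analysed here. No symbol in the list began with AABR07, the clone-derived placeholder that the choice of genes also allowed. The locus left out, LOC691716, a copy of a ribosomal protein gene, reached 1 CPM in 5 rats. The loci just inside the limit, LOC100362054, LOC365287 and LOC100360012, reached it in 8 rats each.

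Whole hippocampus was sequenced as poly-A-selected RNA from 24 F0 rats of generation F37, 6 male and 6 female bHRs (bred High Responder) and 6 male and 6 female bLRs (bred Low Responder). The lines were selectively bred for high or low locomotion in an unfamiliar arena, so alleles that drifted apart differ between them along with those under selection. The labels place 1 male and 1 female in each of 12 families, 6 families per line. In the study's methods, by contrast, every rat comes from a family of its own, so whether rats that share a code are related is not settled here. Males were 151 to 165 days old and females 187 to 192 days old by the labels, and the sexes were dissected on separate days, so sex, age and day cannot be told apart. One library of low RNA integrity (RIN of 6.3, bHR female, family H05) was left out of the fits, which left 11 bHRs and 12 bLRs. Total counts per rat ran from 16824899 to 28443049, and 3 counts stood for 0.0866 to 0.216 CPM.

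A placeholder symbol marks a gene model that was predicted before anyone had tied it to a known gene, and says nothing about what the gene does. Later annotation rounds settle many of these models as members of large gene families or as copies of other genes. Zinc finger genes of the KRAB type, DNA-binding repressors many of which silence transposable elements, sit in clusters and multiply by tandem duplication, so near-identical neighbors are common. Processed pseudogenes arise when a messenger RNA is copied back into DNA and inserted elsewhere. Abundant messages such as those of ribosomal proteins have many such copies. Counts of a copy depend on how well reads can be told from those of the parent gene, and only unique hits were counted here, so the counts of every copy below are uncertain in that respect.

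RefSeq gene names (assembly GRCr8) were matched to 40 of the 41 loci by gene ID or symbol, and 5 of these 40 still have a LOC symbol there. The largest group was 16 zinc finger loci, among them LOC102548695 (Zfp94l1), LOC103691005 (Zfp51) and LOC100365363 (Zfp160). Rnor6 also lists another gene under the symbol Zfp51 (Log2FC of bLR vs. bHR of -0.11, edgeR FDR = 0.802), so the locus is called LOC103691005 here. A further 4 loci were copies of ribosomal protein genes, such as LOC108349721 (Rps23-ps12) and LOC100364457 (Rpl9-ps30). Copies of other genes made up 7 loci, among them LOC679711 (Dlg5l15), LOC499235 (Cdv3l1), LOC100912427 (Ybx1l1) and LOC687679 (Snrpgl1). Open reading frames named only for their human counterpart made up 6, and 2 matched named proteins, LOC684270 (Isoc2a) and LOC691143 (Saal1). The remaining 6 loci, LOC100362069 and LOC102555377 among them, had no descriptive name. In Rnor6, 34 of the 41 were annotated as protein coding, 4 as processed pseudogenes and 3 as long intergenic RNAs, whereas RefSeq lists 31 as protein coding, 7 as pseudogenes and 2 as long noncoding RNAs. The median span of the loci was 4.58 kb, against 17.1 kb for the 967 tested chromosome 1 genes with an ordinary symbol outside the same windows, referred to as named genes.

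CPM values were not divided by gene length, so they give how deeply a locus was counted and were not compared between genes. The locus counted most deeply was LOC100362069 (Rnor6 chr1:84573496-84573959, plus strand), with a lowest, median and highest value over the 23 rats of 64.4, 128 and 251 CPM. Isoc2a (LOC684270) followed with 31.2, 72.8 and 139 CPM, LOC100125364 (C1h6orf120) with 33.7, 53.5 and 78.6 CPM, and Zfp160 (LOC100365363) with 21.3, 45.5 and 79.1 CPM. These values are scaled by TMM, a library size correction, whereas the limit of 1 CPM was set on unscaled CPM, on which 31 of the 41 loci had at least 1 CPM in all 23 rats. The 3 lowest were LOC100360012 (Srsf7-ps1, mean of 0.897 CPM), LOC365287 (Rpl26-ps7, 0.912 CPM) and LOC100912427 (Ybx1l1, 0.94 CPM), and single rats had as few as 2 reads at the first and the second of these.

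The cells sampled were those of the whole structure. In bulk tissue, fewer cells of a type and less RNA per cell cannot be told apart. Only 6 of the 29 cell type markers listed could be matched to a gene ID. Slc17a7, the vesicular glutamate transporter of excitatory neurons, had 160 to 867 CPM in bHRs and 172 to 1090 CPM in bLRs, and the astrocyte gene Aqp4 had 73.9 to 224 and 71.3 to 229 CPM. Folr1, a choroid plexus gene, had 2.39 to 55.2 CPM in bHRs and 3.6 to 41.7 CPM in bLRs. The erythroid gene Alas2 had 0.375 to 14.6 and 0.509 to 7.53 CPM. None of the 6 differed by line at FDR < 0.10, the smallest FDR being 0.624 for Gfap.

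The comparison of bLRs with bHRs asked which loci differ between lines with opposite temperament. At FDR < 0.10 in edgeR's quasi-likelihood test, with sex, %rRNA and %intergenic as covariates, 2 of the 41 unnamed loci differed, beside 1.34% of all genes tested. LOC679711, listed by RefSeq as Dlg5l15, a member of a family of Dlg5-like genes, was higher in bLRs. LOC102548695 (Zfp94l1), a zinc finger gene, was lower in bLRs by a fit that only just passed. At an unadjusted p below 0.05 there were 3 loci of 41, beside 9.96% of all genes. None of the 41 had CPM ranges that did not overlap between the lines, beside 0.0361% of all genes.

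LOC679711 (Rnor6 chr1:24981823-24982606, minus strand, ENSRNOG00000054246) had a lowest, median and highest value of 0.0323, 0.635 and 1.77 CPM in the 11 bHRs and of 0.436, 1.57 and 2.59 CPM in the 12 bLRs. The ranges overlapped, with 10 of 12 bLRs above the bHR median and the lowest value in the bHR female of family H02, which had 1 read. In reads, bHRs had 1 to 29 and bLRs 12 to 51. Mean ± SD was 0.768 ± 0.564 CPM over 11 bHRs and 1.43 ± 0.728 CPM over 12 bLRs, and the Log2FC was 1.14 (SE = 0.257, edgeR FDR = 0.0238). The call held with each rat left out in turn, with FDRs of 0.00722 to 0.0803 and Log2FCs of 1.02 to 1.26. It was lost without technical covariates (Log2FC of 0.93, FDR = 0.393), with %rRNA alone (0.86, FDR = 0.158) and with %intergenic alone (1.28, FDR = 0.48).

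By sex, the mean of LOC679711 was 0.774 ± 0.506 CPM in 6 bHR males and 1.57 ± 0.611 CPM in 6 bLR males, and 0.76 ± 0.689 CPM in 5 bHR females and 1.29 ± 0.863 CPM in 6 bLR females (all SD). In each sex fitted alone, with %rRNA as the only technical covariate, the Log2FC stayed positive and was not called. It was 0.93 in males (edgeR FDR = 0.583) and 0.78 in females (edgeR FDR = 0.64). With %rRNA alone in both sexes together it was 0.86 (edgeR FDR = 0.158). The excluded low-RIN bHR had 0.437 CPM. RefSeq lists 16 Dlg5-like symbols on 6 chromosomes and none on chromosome 1, and it places Dlg5l15 itself on chromosome 19, so whether these reads come from the place counted in Rnor6 was not tested. Its nearest tested neighbors, 124 kb and 191 kb away, were AABR07000733.1 (Log2FC of -0.67, SE = 0.318, FDR = 0.48) and Clvs2, a neuronal lipid-binding protein gene (-0.054, SE = 0.098, FDR = 0.905).

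LOC102548695 (Zfp94l1; Rnor6 chr1:81159107-81163689, minus strand) had a lowest, median and highest value of 6.25, 8.83 and 13.1 CPM in bHRs and of 4.43, 7.29 and 10.9 CPM in bLRs. The lines overlapped over most of their range, with 11 of 12 bLRs below the bHR median. The means were 9.29 ± 2.34 CPM (SD, n = 11) and 7.16 ± 1.8 CPM (SD, n = 12), and the Log2FC was -0.34 (SE = 0.0941, edgeR FDR = 0.0996). It kept its sign in all 37 alternatives but its call in 5, and with single rats left out its FDR ran from 0.0271 to 0.325. With family as a random effect in limma-voom the FDR was 0.119. In males alone the Log2FC was -0.42 and in females alone -0.2, both with %rRNA as the only technical covariate. Its neighbors Zfp61 (6.72 kb away, Log2FC of -0.024, SE = 0.0898) and Smg9, a nonsense-mediated decay factor gene (96.9 kb away, 0.33, SE = 0.157, FDR = 0.486), were not called.

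**Figure D1:**
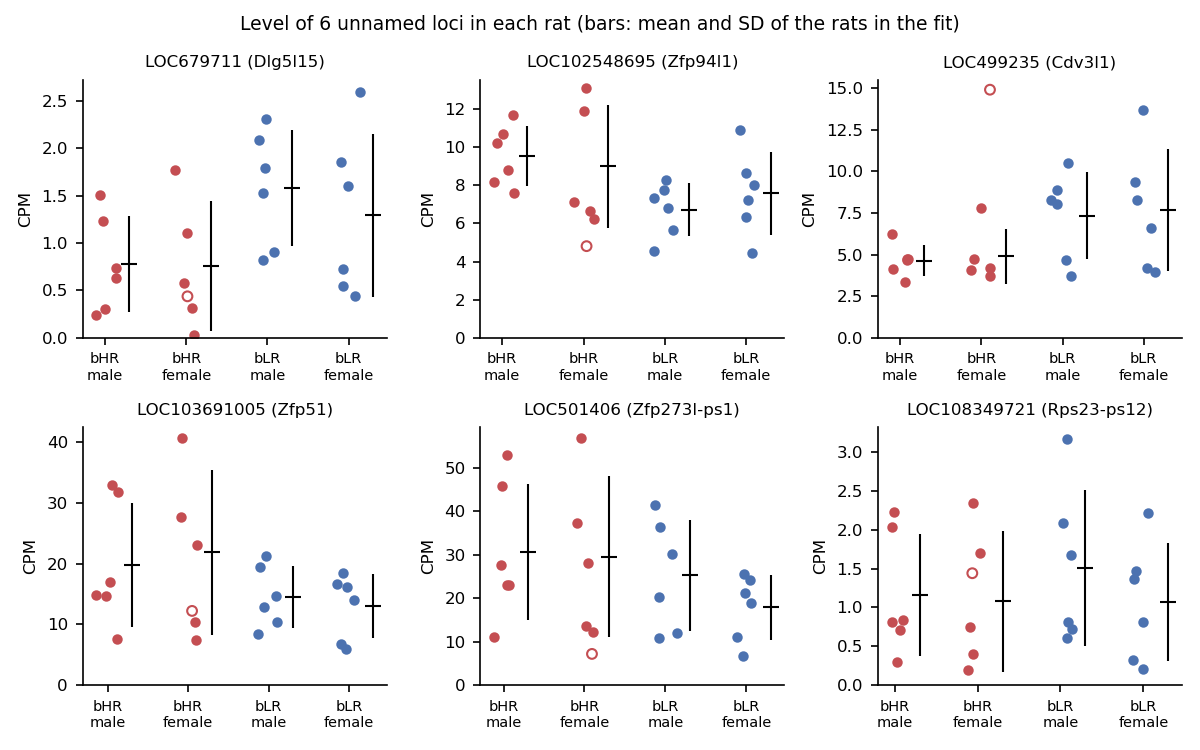
CPM of 6 unnamed loci (vertical axes, from 0) in each rat of the 4 groups, with bHRs in red and bLRs in blue. The bars are the mean and SD of the rats in the fit, the open circle is the bHR female with a RIN of 6.3, and the points of the lines overlap at each of the 6 loci, LOC679711 at 0.0323 to 1.77 CPM in bHRs and 0.436 to 2.59 CPM in bLRs.

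Promoter sequence of 3 of the 12 loci with the smallest lineage p is shown to let the windows of a zinc finger gene and of a retrocopy be compared. By lineage p, Zfp94l1 ranked 2, LOC103691005 5 and Ybx1l1 10 among the loci. RefSeq windows of 300 bases around a gene start (250 before to 50 after, assembly GRCr8) were available for 27 of the 41 loci, and CpG dinucleotides are in capitals. The windows are GRCr8 chr1:89028014-89028313 on the minus strand for Zfp94l1, chr1:69886884-69887183 on the plus strand for LOC103691005, and chr1:180740355-180740654 on the minus strand for Ybx1l1, a copy of the gene of an RNA-binding protein.
Zfp94l1: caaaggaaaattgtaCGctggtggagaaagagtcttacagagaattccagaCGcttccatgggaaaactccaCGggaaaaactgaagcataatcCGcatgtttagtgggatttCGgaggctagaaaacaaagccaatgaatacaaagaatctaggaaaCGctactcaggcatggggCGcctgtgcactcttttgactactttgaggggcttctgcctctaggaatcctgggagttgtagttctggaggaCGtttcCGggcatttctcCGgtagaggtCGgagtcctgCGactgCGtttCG
LOC103691005: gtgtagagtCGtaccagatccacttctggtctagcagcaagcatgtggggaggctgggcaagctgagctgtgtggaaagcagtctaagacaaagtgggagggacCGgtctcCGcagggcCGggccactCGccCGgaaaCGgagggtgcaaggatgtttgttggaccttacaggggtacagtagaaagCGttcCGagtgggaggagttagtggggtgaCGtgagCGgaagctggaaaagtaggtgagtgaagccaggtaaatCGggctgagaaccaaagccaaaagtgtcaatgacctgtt
Ybx1l1: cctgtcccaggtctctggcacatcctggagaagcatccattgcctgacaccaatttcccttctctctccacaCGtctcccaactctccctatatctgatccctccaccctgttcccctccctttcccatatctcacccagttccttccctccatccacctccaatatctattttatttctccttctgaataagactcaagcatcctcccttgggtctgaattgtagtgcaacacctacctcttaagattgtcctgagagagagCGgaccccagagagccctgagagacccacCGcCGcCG
The Zfp94l1 window holds 14 CpGs, the LOC103691005 window 12 and the Ybx1l1 window 5. A second listed start has 14 CpGs at Zfp94l1 but 3 at LOC103691005. Taking the richest window of each gene, the 11 zinc finger loci with a window had a median of 13 CpGs (1 to 19). The median was 9 (5 to 15) over 3 copies of other genes, 13 over all 27 loci and 8 over 27457 genes. The letters TATAAA, searched on both strands, occur in a window of 2 of the 27 loci (7.41%) and of 15.3% of all genes, and in none of these 3 windows. No window is shown for LOC679711, whose RefSeq entry lies on another chromosome.

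The locus with the next smallest p was LOC499235 (Cdv3l1; Rnor6 chr1:171993857-171997902, minus strand), a copy of Cdv3. It had 3.34, 4.67 and 7.77 CPM (lowest, median, highest) in bHRs and 3.69, 8.16 and 13.7 CPM in bLRs. The means were 4.75 ± 1.25 CPM (SD, n = 11) and 7.51 ± 3.02 CPM (SD, n = 12), with 9 of 12 bLRs above the bHR median. The Log2FC was 0.32 (SE = 0.144, edgeR FDR = 0.448), so the difference did not pass. Without technical covariates it was 0.65 (edgeR FDR = 0.229). The excluded bHR female had 14.9 CPM, above every other rat, and with all 24 rats the locus was still not called. Its neighbors Cyb5r2 (13.9 kb) and Eif3f (1530 kb) had Log2FCs of 0.051 and 0.15.

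The other 9 of the 12 loci with the smallest p were not called, with FDRs of 0.543 to 0.683. Zinc finger loci made up 6 of these 9, and 5 of the 6 had negative Log2FCs. LOC103691005 had 7.4, 17 and 40.7 CPM in bHRs and 5.99, 14.3 and 21.3 CPM in bLRs (Log2FC of -0.29, SE = 0.151). Its 3 highest values were in bHRs, while its lowest values were spread over both lines. Zfp719 (LOC102556967) had 15, 19.3 and 24.2 CPM in bHRs and 11.1, 15.4 and 20.9 CPM in bLRs (-0.18, SE = 0.0918), and its neighbors LOC102546648 (Zfp658) and Zfp819 had Log2FCs of -0.044 and -0.033. The other zinc finger loci were LOC682206 (Zfp748-ps1, -0.22), LOC501406 (Zfp273l-ps1, -0.22), LOC102551340 (Zfp729, -0.14) and, with the opposite sign, LOC102553962 (Zfp764l1, 0.19). Without bHR male replicate 1 the Log2FC of Zfp748-ps1 was -0.091, of Zfp273l-ps1 -0.079, of Zfp729 -0.061, of Zfp719 -0.1 and of Cdv3l1 0.2. The 3 remaining loci were Rps23-ps12 (0.44, SE = 0.26), Ybx1l1 (-0.3, SE = 0.19, and -0.18 without bLR male replicate 3) and Saal1 (-0.15, SE = 0.107).

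**Figure D2:**
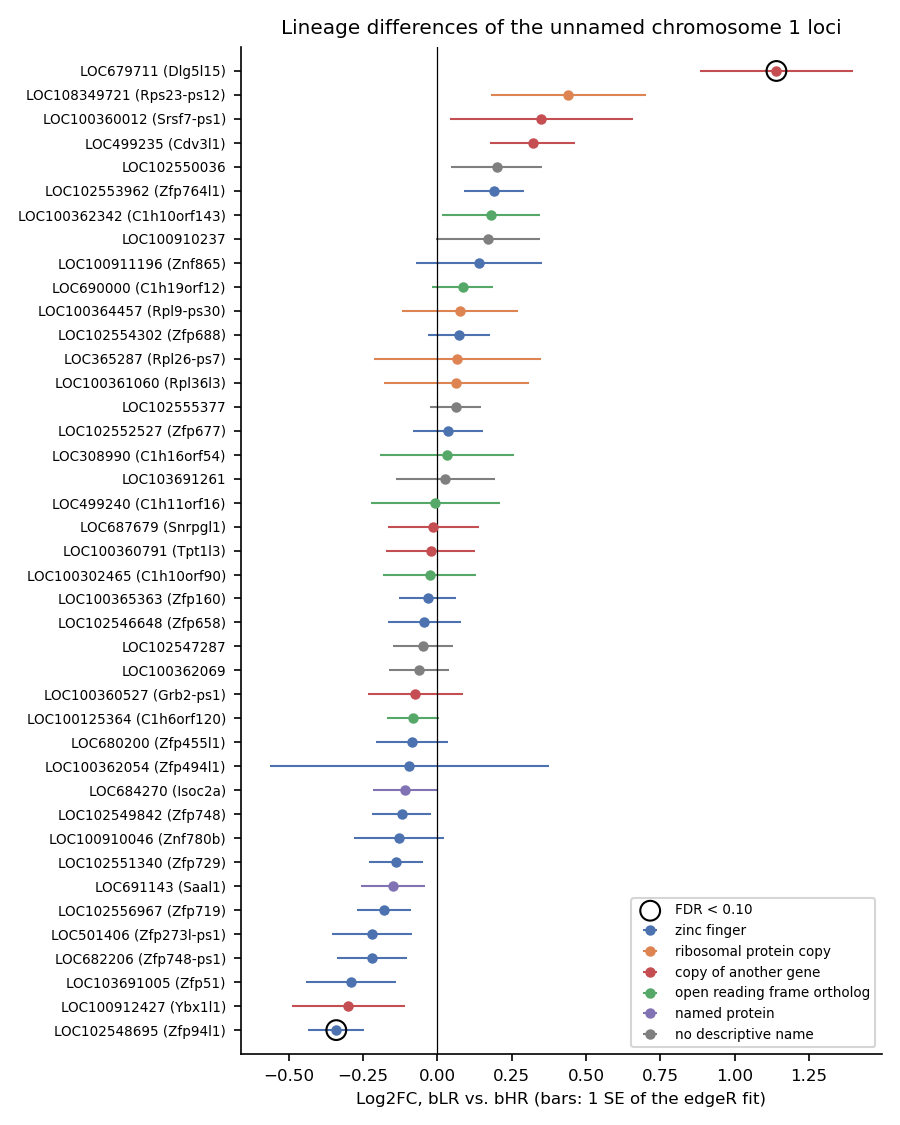
Log2FC of bLR vs. bHR (horizontal axis) for each of the 41 loci, sorted, with bars of 1 SE of the edgeR fit and colors for the groups of the RefSeq names. Circles mark the 2 loci with FDR < 0.10, LOC679711 at 1.14 and LOC102548695 at -0.34, and the zinc finger loci lie mostly below 0, at 12 of 16.

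Over all 41 loci, 23 had a negative Log2FC, as did 454 of the 967 named genes and 7058 of all 13838 genes. Over the alternatives the number of negative loci ran from 16 (without bHR female replicate 6) to 30 (each sex alone, with %rRNA as the only technical covariate). With %rRNA alone in both sexes together it was 29. Among the 16 zinc finger loci, 12 were negative (10 to 13 over the alternatives), with a median Log2FC of -0.11, and 1 was called, Zfp94l1. Among 54 tested chromosome 1 genes with a zinc finger symbol (Zfp, Zscan, Znf, Zik or Zim), 38 were negative, with a median of -0.037, and 1 was called, Zfp551 (Log2FC of -0.37, SE = 0.103, edgeR FDR = 0.0996). The 1 call is 6.25% of the first list and 1.85% of the second, beside 1.34% of all genes, too few to read a direction from. All 4 ribosomal protein copies had positive Log2FCs of 0.064 to 0.44, with SEs of 0.196 to 0.28, and none was called. This sign depended on the covariates and the rats, since 3 of the 4 were negative with %rRNA alone and in females alone, and 2 in males alone, without covariates and without bHR female replicate 4. The fits of 1 sex alone also left out %intergenic, so they are not separate from the covariates.

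The size of the lineage differences was next set beside that of the named genes of the chromosome. The median absolute Log2FC was 0.0939 over the 41 unnamed loci, 0.0959 over the 967 named genes and 0.102 over all genes. The middle 50% of the unnamed loci ran from 0.0611 to 0.192 and of the named genes from 0.0422 to 0.179. An absolute Log2FC above 0.5 was found at 1 of 41 loci (2.44%), at 20 of 967 named genes (2.07%) and at 2.88% of all genes. The jackknife SE of the median over the 23 rats was 0.0572 for the unnamed loci and 0.0266 for the named genes, and the difference between the medians was not tested.

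For frequency, 2 of 41 unnamed loci (4.88%) and 6 of 967 named genes (0.62%) passed FDR < 0.10, where each locus stands for 2.44% of the 41. At an unadjusted p below 0.05 the order was the opposite, with 3 of 41 (7.32%) and 104 of 967 (10.8%). Neither order held under other covariates. Without covariates 0 unnamed loci and 3 named genes passed FDR < 0.10, with %rRNA alone 0 and 13, and with %intergenic alone 0 and 2. The shares at p below 0.05 were then 17.1% of the unnamed loci and 11.8% of the named genes without covariates, 24.4% and 16.4% with %rRNA alone, and 7.32% and 6.62% with %intergenic alone. The named genes called were Tnnt1, a troponin (Log2FC of 2.06), Calca, which encodes CGRP (1.0), the Wnt regulator Nkd2 (0.8), the NF-kB subunit Relb (0.47), Zfp551 and Tssc4 (-0.35). Chromosome 1 genes without a symbol in the F0 annotation (some have one in an older name column), 90 in number, had a median absolute Log2FC of 0.13. Of these, 3 (3.33%) were called and 16 (17.8%) had p below 0.05, beside 1.34% and 9.96% of all genes.

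Over all genes the median absolute Log2FC was 0.178 below 1 in log2 of mean CPM, 0.134 from 1 to 3 and 0.085 above 3. The comparison was therefore repeated within these bands. Below 1, the median absolute Log2FC was 0.133 over 9 unnamed loci and 0.182 over 103 named genes. From 1 to 3 it was 0.0854 over 15 loci and 0.12 over 218 named genes. Above 3 it was 0.0854 over 17 loci and 0.079 over 646 named genes. At p below 0.05 each band held 1 unnamed locus, beside 17, 24 and 63 named genes (16.5%, 11% and 9.75%).

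**Figure D3:**
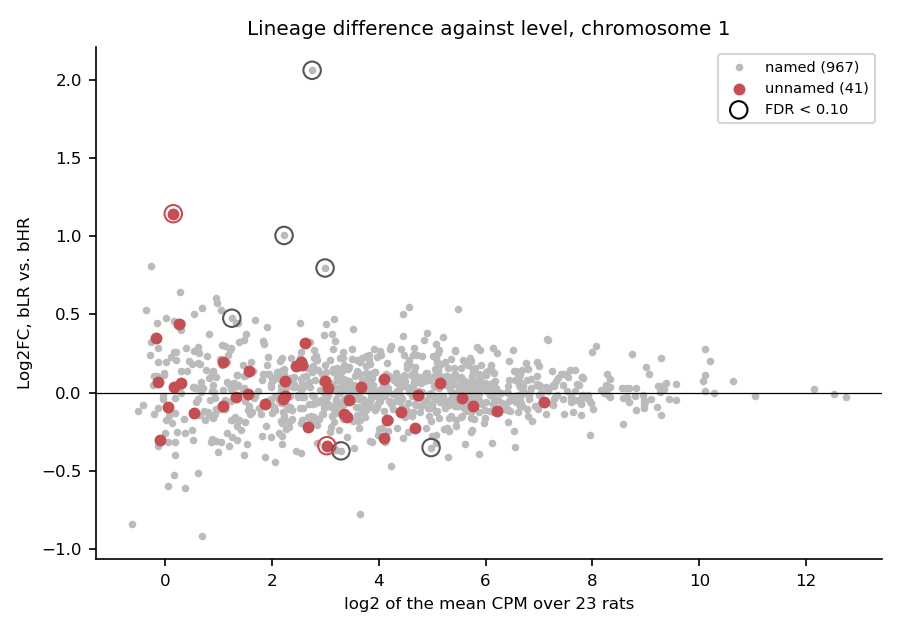
Log2FC of bLR vs. bHR (vertical axis) against the log2 of the mean CPM over 23 rats (horizontal axis) for 967 named chromosome 1 genes in gray and 41 unnamed loci in red. Rings mark FDR < 0.10, and LOC679711 at a Log2FC of 1.14 is the 1 unnamed locus with an absolute Log2FC above 0.5.

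Expression of these loci varied widely between rats of the same line and sex. The residual SD of log2(CPM + 0.5) within line and sex had a median of 0.505 over the 41 loci, against 0.444 for the named genes and 0.437 for all genes. By band of log2 mean CPM, the medians of unnamed loci and named genes were 0.635 and 0.446 below 1. They were 0.425 and 0.467 from 1 to 3, the other order, and 0.535 and 0.434 above 3. The residual SD was largest for Rpl9-ps30 (LOC100364457, 1.01), Snrpgl1 (LOC687679, 0.965), a copy of a splicing factor gene, and Zfp494l1 (LOC100362054, 0.838). Rpl9-ps30 ran from 1.16 to 13.9 CPM and Snrpgl1 from 7.37 to 68.5 CPM. Zfp494l1 ran from 0.0867 to 4.62 CPM, its lowest value being of 2 reads. Once %rRNA and %intergenic were added, the median residual SD fell to 0.26 for the unnamed loci and 0.266 for the named genes.

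The technical covariates are taken from the labels: %rRNA is the share of a library's reads from ribosomal RNA and %intergenic the share from outside annotated genes. %intergenic was 9.83 ± 1.35% in bHRs (SD, n = 11, range of 8.74 to 13.5%) and 10.7 ± 1.09% in bLRs (SD, n = 12, range of 8.92 to 12.7%), and %rRNA was 2.25 ± 0.69% and 2.41 ± 0.849%. In the same edgeR fit, 30 of the 41 unnamed loci fell with %intergenic and 3 rose at FDR < 0.10, beside 33.4% of all genes that fell and 35.4% that rose. Of the 967 named genes, 329 fell and 382 rose. The 90 genes without an F0 symbol leaned the same way as the unnamed loci, with 46 that fell and 11 that rose. With %rRNA, 27 of the 41 loci rose and 7 fell, beside 36.2% of all genes that rose and 40.2% that fell, and 345 named genes rose and 407 fell. Both at once, falling with %intergenic and rising with %rRNA, held for 25 of the 41 loci, 258 of the named genes (26.7%) and 25.7% of all genes.

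The counts that fell with %intergenic are given by group, without a test between groups. All 4 ribosomal protein copies, all 6 loci without a descriptive name and 11 of the 16 zinc finger loci fell, beside 4 of 7 copies of other genes and 3 of 6 open reading frames. With %rRNA, 8 of the 16 zinc finger loci rose and 5 fell. Of the zinc finger list, 19 of the 54 genes fell with %intergenic and 22 rose. The slope was -0.42 in log2 units per percentage point for Zfp748 (LOC102549842, SE = 0.042), -0.4 for Zfp273l-ps1 (LOC501406, SE = 0.0549) and -0.35 for LOC103691005 (SE = 0.0612). Zfp273l-ps1 was lowest at 6.68 CPM in the bLR female of family L06 (11.4% intergenic) and highest at 56.9 CPM in the bHR female of family H08 (8.9% intergenic). Loci that rose instead were Cdv3l1 (0.23, SE = 0.0563), Znf865 (LOC100911196, 0.23, SE = 0.0876) and Zfp658 (LOC102546648, 0.12, SE = 0.0481). The slope with %intergenic was negative at 34 of the 41 loci, at 34 in males fitted alone and at 35 in females fitted alone, each sex being 1 day of dissection.

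**Figure D4:**
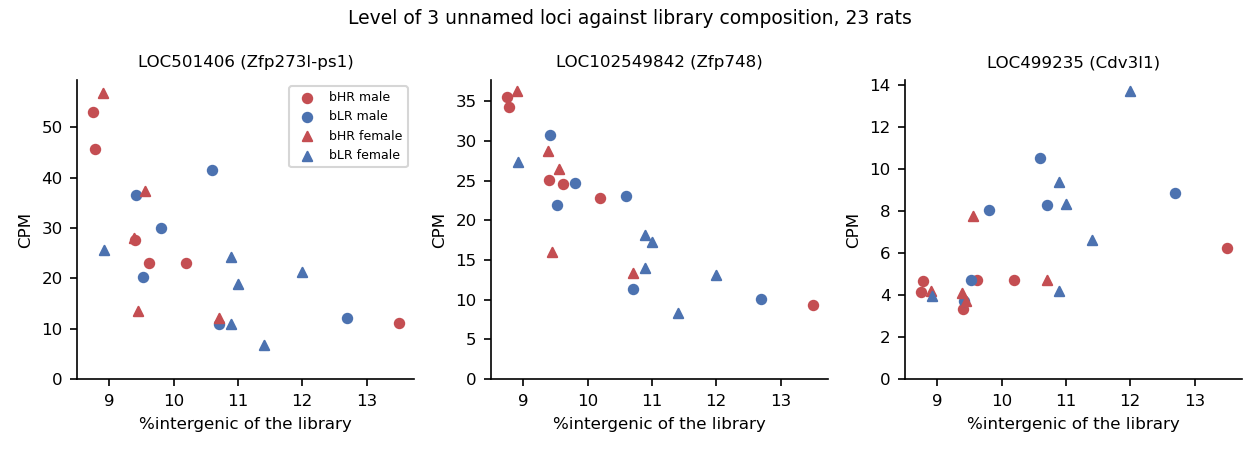
CPM (vertical axes, from 0) of 3 unnamed loci against the %intergenic of each library (horizontal axes) in 23 rats, with colors for the line and shapes for the sex. Zfp273l-ps1 and Zfp748 were lower at higher %intergenic (slopes of -0.4 and -0.42 per percentage point) and Cdv3l1 was higher (0.23), in rats of both lines.

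**Figure D5:**
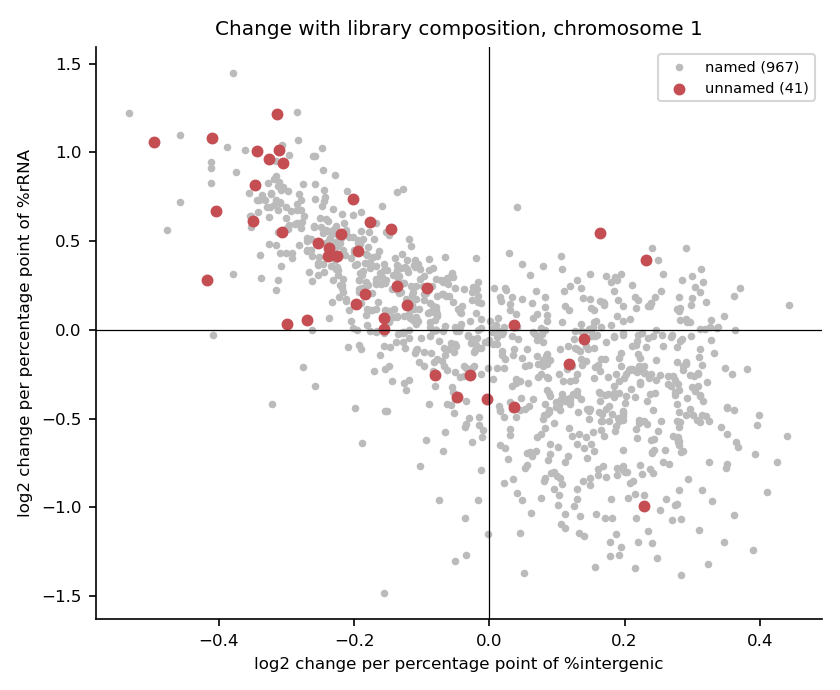
Log2 change per percentage point of %rRNA (vertical axis) against that of %intergenic (horizontal axis) for 967 named genes in gray and 41 unnamed loci in red. Most unnamed loci lie at the upper left, where 25 of 41 passed both tests, while the named genes spread over the upper left and lower right.

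The lineage comparison was also read without these covariates. Without either covariate the median absolute Log2FC was 0.182 over the unnamed loci and 0.15 over the named genes, and no unnamed locus passed FDR < 0.10 in edgeR, with 7 of 41 at an unadjusted p below 0.05, beside 11.7% of all genes. Of the 41 Log2FCs, 28 were larger in size without the covariates and 7 had the other sign. LOC103691005 went from -0.29 to -0.59 and Zfp273l-ps1 from -0.22 to -0.49, neither of them called in either fit. LOC679711 had slopes of -0.31 per point of %intergenic (SE = 0.106) and 1.01 per point of %rRNA, and Zfp94l1 had 0.036 (SE = 0.0372) and -0.43.

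Sex, which coincides with day and age, was called at none of the 41 loci in edgeR's quasi-likelihood test, beside 0.354% of all genes, and none had an unadjusted p below 0.05, beside 11.2% of all genes. limma-voom and DESeq2 also called none. The smallest p was that of C1h6orf120 (LOC100125364, Log2FC of -0.17 female vs. male, edgeR FDR = 0.452). No locus was called for the interaction of lineage and sex, and none had an unadjusted p below 0.05, beside 2.35% of all genes. The largest contrast between the sexes was at Zfp494l1 (LOC100362054), with Log2FCs of 0.1 in males and -1.46 in females (interaction FDR of 1.0 in edgeR).

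Of the 40 loci tested in both sexes separately, 32 had Log2FCs of 1 sign in both sexes, beside 684 of 962 named genes (71.1%) and 70.5% of all genes. These fits left out %intergenic, whose mean was higher in bLRs than in bHRs of each sex. In each sex alone 30 loci were negative, against 23 of 41 with both covariates and 29 of 41 with %rRNA alone. The shared sign is therefore not a separate replication in each sex, and it was not tested with %intergenic as a covariate. Srsf7-ps1 (LOC100360012) did not reach the limit on CPM in males. Family within line was called at none of the 41 loci in edgeR, beside 0.0723% of all genes. LOC100910237, a long noncoding RNA, and Rps23-ps12 (LOC108349721) had unadjusted p-values below 0.05, 2 of 41 loci beside 3.19% of all genes. Families were taken from the labelled codes, and this test holds only as far as those codes mark shared families.

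Overlaps on the same strand limit 3 of the loci. All 3983 bases of LOC102547287 lie inside the span of Zfp748 (LOC102549842) on the same strand, so their counts cannot be told apart where exons coincide. Both had small negative Log2FCs (-0.048 and -0.12, and as small as -0.0024 without bHR female replicate 4 and -0.023 without bHR male replicate 1) and fell with %intergenic (slopes of -0.27 and -0.42). All 360 bases of Rps23-ps12 lie inside the span of Garre1, whose Log2FC was 0.024. On the opposite strand, C1h6orf120 overlaps Phf10 by 914 bases and C1h11orf16 (LOC499240) overlaps Akip1 by 611 bases.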

How the data were processed

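Raw counts per gene of 24 hippocampal libraries were analyzed. Per the labels and the study's methods, the authors used STAR 2.7.3a (genome Rnor6, unique hits) and then Subread 2.0.0 (Ensembl genes, by strand), and the deposited counts are neither normalized nor filtered. Genes that reached 1 CPM in 6 or more of 23 rats (RIN above 8) were normalized by TMM and tested with the quasi-likelihood F test of edgeR 4.0.16 in R 4.3.3, on a model of lineage and sex with both technical covariates. The interaction, and lineage within each sex alone, were tested with %rRNA as the only technical covariate. Family was tested as terms nested in line. Slopes within each sex kept both covariates. FDRs are Benjamini-Hochberg values over 13838 genes, called below 0.10. A positive Log2FC is higher in bLRs or in females. Alternatives used limma 3.58.1 and DESeq2 1.42.0. The lineage test was also run on simulated counts that carried no effect of sex, %rRNA or %intergenic. That run does not check how the covariates are handled.

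The members and lists were chosen with earlier results of these data known. The slopes with %rRNA and %intergenic, the fit with %intergenic alone and the sequence searched were chosen after seeing the values. Named in the text are the loci that were called, the 12 with the smallest lineage p and the neighbors of the 4 smallest, those with the highest or lowest CPM or largest residual SD, those next to the CPM limit, those that overlap another gene, and the called genes of the chromosome. Others named, as examples of a group or slope, were chosen after their values were seen. Positions of loci come from the study's gene list, and names and promoter windows from RefSeq, whose assembly differs, so coordinates of the 2 were not combined. No 2 libraries held identical counts. A male and a female share each family code, and their consensus correlation was 0.0085. A count of 3 reads was taken as the floor of detection, and p-values measure the spread between these rats. Columns of the authors' own comparisons in the gene list (fold changes and p-values) were not used.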

Additional observations from a re-analysis of the deposited data

Results flagged for a closer look

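Among 92 groups of 5 or 6 rats at the 23 loci chosen by the rule for named genes, 2 held a rat far from the others by Dixon's test, where chance alone would give about 1 group in 20. LOC100362054 (Zfp494l1) had 3.34 CPM in the bHR male of family H11, against 0.167 to 1.15 CPM in the other 5 bHR males. LOC499235 (Cdv3l1) had 7.77 CPM in the bHR female of family H12, against 3.72 to 4.72 CPM in the other 4 bHR females of the fit.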

How the results depend on the processing

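The count of unnamed loci called by lineage was 2 and became 1, LOC679711 being the locus left, with limma-voom, library size alone, no filter beyond 1 read, 1 read in 25% of the rats, all 24 rats, FDR < 0.05 and the replicate block (family as a random effect, 1 locus). It was 0 with males alone and females alone (both without %intergenic as a covariate), no technical covariates, %rRNA alone and %intergenic alone, and 1 to 2 with each rat left out. The number of genes called by lineage was 185, against 329 (DESeq2), 294 (all 24 rats), 65 (%intergenic alone), 56 (no covariates), 18 (males alone) and 8 (females alone), and 97 to 436 with each rat left out (lowest without bHR male replicate 1, highest without bHR female replicate 6). By sex, 49 genes became 157 (DESeq2), 28 (FDR < 0.05), 21 (library size alone), 19 (family as a fixed block), 18 (%rRNA alone) and 13 (no covariates), and 18 to 159 with each rat left out (without bHR male replicate 3 and bLR male replicate 3). No unnamed locus was called by sex in any of these. The cause of these shifts was not tested.

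The median absolute Log2FC moved by more than its jackknife SE to 0.211 (females alone), 0.202 (males alone), 0.182 (no covariates) and 0.221 (%rRNA alone) for the unnamed loci, and to 0.225, 0.176, 0.15 and 0.178 for the named genes, with 0.129 under %intergenic alone. With each rat left out it was 0.0879 to 0.134 and 0.0881 to 0.11. Of the 23 loci chosen by the rule for named genes, 7 changed sign in some alternative, as did 16 of the other 18, and none of these was called in any fit. Of those 16, Zfp658 (LOC102546648) went from -0.044 to 0.022 and LOC102555377 from 0.061 to -0.091 without covariates. LOC100362054 went from -0.094 to 0.053 (all 24 rats), 0.046 (%intergenic alone), 0.1 (males alone) and -0.32 to 0.13 with rats left out. LOC365287 went from 0.067 to -0.41 (females alone), -0.066 (no covariates), -0.19 (%rRNA alone) and -0.035 to 0.32. LOC100364457 went from 0.076 to -0.21 (females alone, and %rRNA alone), -0.23 (males alone) and -0.021 to 0.22. LOC687679 went from -0.014 to 0.31 (%intergenic alone), 0.014 (library size alone), 0.042 (limma-voom), 0.041 (family block) and -0.08 to 0.15. Under %intergenic alone LOC100362069 became 0.086, LOC100365363 0.059 and LOC684270 0.013, and with rats left out the first had -0.1 to 0.022 and the second -0.07 to 0.042. The 12 loci with the smallest lineage p kept their sign in every alternative. Loci near 1 CPM rest on few reads (2 to 73 at Zfp494l1), but their SEs of lineage differed, at 0.19 for Ybx1l1, 0.257 for LOC679711 and 0.47 for Zfp494l1, and the parts of depth and of the spread between rats were not tested.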

Other observations

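Placeholder names of the AABR07 kind occur only in an older name column, mostly at genes that have no symbol in the F0 annotation. Of the genes with such a name and no F0 symbol, 42 outside the windows were tested, with a median absolute Log2FC of 0.154. By lineage in edgeR at FDR < 0.10, 3 (7.14%) were called, beside 1.34% of all genes. At an unadjusted p below 0.05 there were 11 (26.2%), beside 9.96% of all genes. Mean ± SD of AABR07001512.1 was 0.722 ± 0.536 CPM over 11 bHRs and 3.06 ± 0.559 CPM over 12 bLRs, with no overlap between the lines (Log2FC of 2.22, edgeR FDR = 5.47e-05). AABR07003304.2 had 1.7 ± 0.679 and 0.591 ± 0.139 CPM (Log2FC of -1.37, edgeR FDR = 0.000559), and AABR07071904.1 had 2.09 ± 0.972 and 0.838 ± 1.06 CPM (Log2FC of -2.05, edgeR FDR = 0.0215). Of the 42, 7 (16.7%) had an absolute Log2FC above 0.5, beside 1 of the 41 LOC loci (2.44%), and this difference was not tested.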
